A study of Homo sapiens with 6 samples.

Results

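The core splicing factors and heterogeneous nuclear ribonucleoproteins (hnRNPs) are the proteins that recognise introns in new transcripts, cut them out and coat the RNA while this happens. Their genes were taken by symbol: every probe set whose annotation named 1 gene only, with a symbol beginning SNRP, SRSF, HNRNP, SF3A or SF3B. That gave 158 of the 41097 probe sets that named 1 gene, and 53 of the 19775 genes that such probe sets represent. They were compared in BR200, BR100 and wild type HT-29, with 2 arrays of each; HT-29 is a human cell line from a colon adenocarcinoma. The labels say that HT-29 had been grown for 7 months in bortezomib, which inhibits the proteasome, at doses raised in steps (20 nM at the start, 300 nM at the end). Isolates were then cloned by 2 limiting dilutions while the drug was kept at 100 or 300 nM for 4 further months, so each resistant variant stands for few clones. The same treatment text stands on all 6 samples, wild type included; which dose BR200 was cloned under, and whether any variant was in drug at harvest, is not given in the sources used here. Each variant had an Express array (3' IVT Express kit, 100 ng of RNA) and a One-Cycle array (One-Cycle kit, 3 ug of RNA). Whether both arrays of a pair stem from different cultures is not stated, so a p-value here covers only the spread among these arrays, which may be technical.

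The spliceosome is built from small nuclear ribonucleoproteins (snRNPs), each a small nuclear RNA with a ring of Sm proteins and a few proteins of its own. The U1 snRNP marks the start of an intron and the U2 snRNP its branch point, where the SF3A and SF3B complexes, both parts of U2, hold the RNA in place. SR proteins, encoded by the SRSF genes, bind exons and mostly favour their inclusion, while many hnRNPs bind introns or exons and favour skipping; their balance sets many alternative splicing choices. SR and hnRNP genes are themselves spliced into alternative forms, some of which are degraded, and several of these proteins act on their own transcripts.

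The 5 members with the largest rises in BR100 were SF3A1, SNRPA1, SF3A3, SNRPB and SNRPF, and the 150 bases before their annotated starts are shown because several carry the same short motif. The sequences are those of RefSeq on GRCh38.p14, read 5′ to 3′ on the strand of the gene, with motif matches in capitals. They lie at chr20:2470790-2470939 (SNRPB, minus strand), chr12:95858802-95858951 (SNRPF, plus strand), chr15:101295249-101295398 (SNRPA1, minus strand), chr22:30356895-30357044 (SF3A1, minus strand) and chr1:37990023-37990172 (SF3A3, minus strand).
SNRPB: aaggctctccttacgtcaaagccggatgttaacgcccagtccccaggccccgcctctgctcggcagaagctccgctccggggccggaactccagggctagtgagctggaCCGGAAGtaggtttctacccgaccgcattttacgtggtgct
SNRPF: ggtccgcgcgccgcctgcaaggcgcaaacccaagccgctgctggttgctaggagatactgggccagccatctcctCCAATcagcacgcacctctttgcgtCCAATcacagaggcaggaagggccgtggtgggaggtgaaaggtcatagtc
SNRPA1: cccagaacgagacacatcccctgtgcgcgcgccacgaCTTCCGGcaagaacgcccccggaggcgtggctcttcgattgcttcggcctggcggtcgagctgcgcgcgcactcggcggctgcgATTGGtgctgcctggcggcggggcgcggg
SF3A1: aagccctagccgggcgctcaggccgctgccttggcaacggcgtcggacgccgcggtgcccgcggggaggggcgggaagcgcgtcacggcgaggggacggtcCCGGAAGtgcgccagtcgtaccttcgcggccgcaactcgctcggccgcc
SF3A3: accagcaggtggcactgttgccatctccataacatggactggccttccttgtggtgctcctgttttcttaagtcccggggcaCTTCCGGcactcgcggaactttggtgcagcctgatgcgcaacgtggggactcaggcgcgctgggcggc
The motifs searched, on both strands, were CCGGAAG (the core bound by ETS factors), CACGTG (the E-box), CCAAT (the CCAAT box) and TATAAA (the TATA box); no match overlapped another in these 5 windows. CCGGAAG began 41 bases before the start of SNRPB and 49 bases before that of SF3A1 on the strand of the gene, and stood as its reverse complement CTTCCGG 113 bases before that of SNRPA1 and 68 bases before that of SF3A3. SNRPF had no CCGGAAG and 2 CCAAT matches, 75 and 50 bases before its start, and SNRPA1 had the reverse complement of CCAAT 29 bases before its own. Promoters were found for 49 of the 53 members, all but SNRPD1, SF3B3, HNRNPA1 and HNRNPA3P1. CCGGAAG was in 57.9% of the 19 promoters of Sm, other snRNP, SF3A and SF3B genes, in 10.0% of the 10 SRSF promoters and in 11.1% of the 18 HNRNP promoters. It was in 14.5% of the 8620 promoters of tested genes and in 7.18% of all 27305 promoters. The 11 snRNP and SF3 promoters that held it include those of SNRPB2, SF3B2, SF3B4 and SF3B6, which did not rise in either variant. A match is a stretch of letters, and binding was not measured.

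Levels are the deposited GCRMA values on the log2 scale, whose lowest value on these arrays was 2.23. A gene was represented by its probe set with the highest mean, and tested if its level was 4 or more on 2 or more arrays, which kept 10370 genes. Of the 53 members, 49 were tested. SNRPN, an Sm protein of neurons, SRSF12, the pseudogene HNRNPA3P1 and the divergent transcript SNRPF-DT were not, with means of 2.23 to 2.24 in each variant. Probe sets for SRSF2, SRSF9 and HNRNPH2 also name a second gene, so these are not members. Among colon epithelial markers, 7 of 10 reached 4 on all arrays, while CDH17, CDX1 and CDX2, which mark intestinal cells, did not on any; LGALS4 was at 6.90 to 7.94 in the resistant variants, against 13.0 to 13.5 in wild type. The summed levels of these markers were 93.7 to 94.2 in BR200 and 92.8 to 93.4 in BR100, against 102.2 to 102.9 in wild type. None of 3 endothelial markers reached 4, nor did 5 of 6 fibroblast markers and the blood markers PTPRC and CD3E; COL1A1, CD14 and LYZ did. Summed levels of the fibroblast list were 16.8 in BR200 and 16.7 to 16.8 in BR100, against 17.0 in wild type. Those of the blood list were 25.5 to 25.8 in BR200 and 24.7 to 24.9 in BR100, against 24.4 in wild type. The gap between the 3′ and 5′ probe sets of ACTB, which grows with RNA breakdown, was 3.24 (Express) and 1.76 (One-Cycle) in BR200 and 3.03 and 1.86 in BR100, against 4.22 and 2.99 in wild type. This gap differed between the resistant variants and wild type in the same arrays as all results below, and its part in them was not tested. In RNA from bulk cultures, fewer cells with a transcript and less of it per cell cannot be told apart.

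Most splicing factor and hnRNP genes that changed were higher in the resistant variants than in wild type. In BR200, 28 of the 49 tested members rose and 4 fell, while 35.4% of all genes tested rose and 31.2% fell. In BR100, 30 rose and 5 fell, while 36.7% of all genes rose and 31.8% fell. The median log2 difference over the members was 0.32 in BR200 and 0.42 in BR100, against 0.04 in each over all genes tested. The 2 comparisons share the wild type arrays. A gene was called changed at an adjusted p under 0.05 in limma, with the kit as a block. Of the BR200 calls, 20 of the 28 rises and 2 of the 4 falls held whichever of the 6 arrays was left out; of the BR100 calls, 22 of 30 and 3 of 5 did. No p is given for a class, because its members were chosen with earlier results known.

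**Figure D1:**
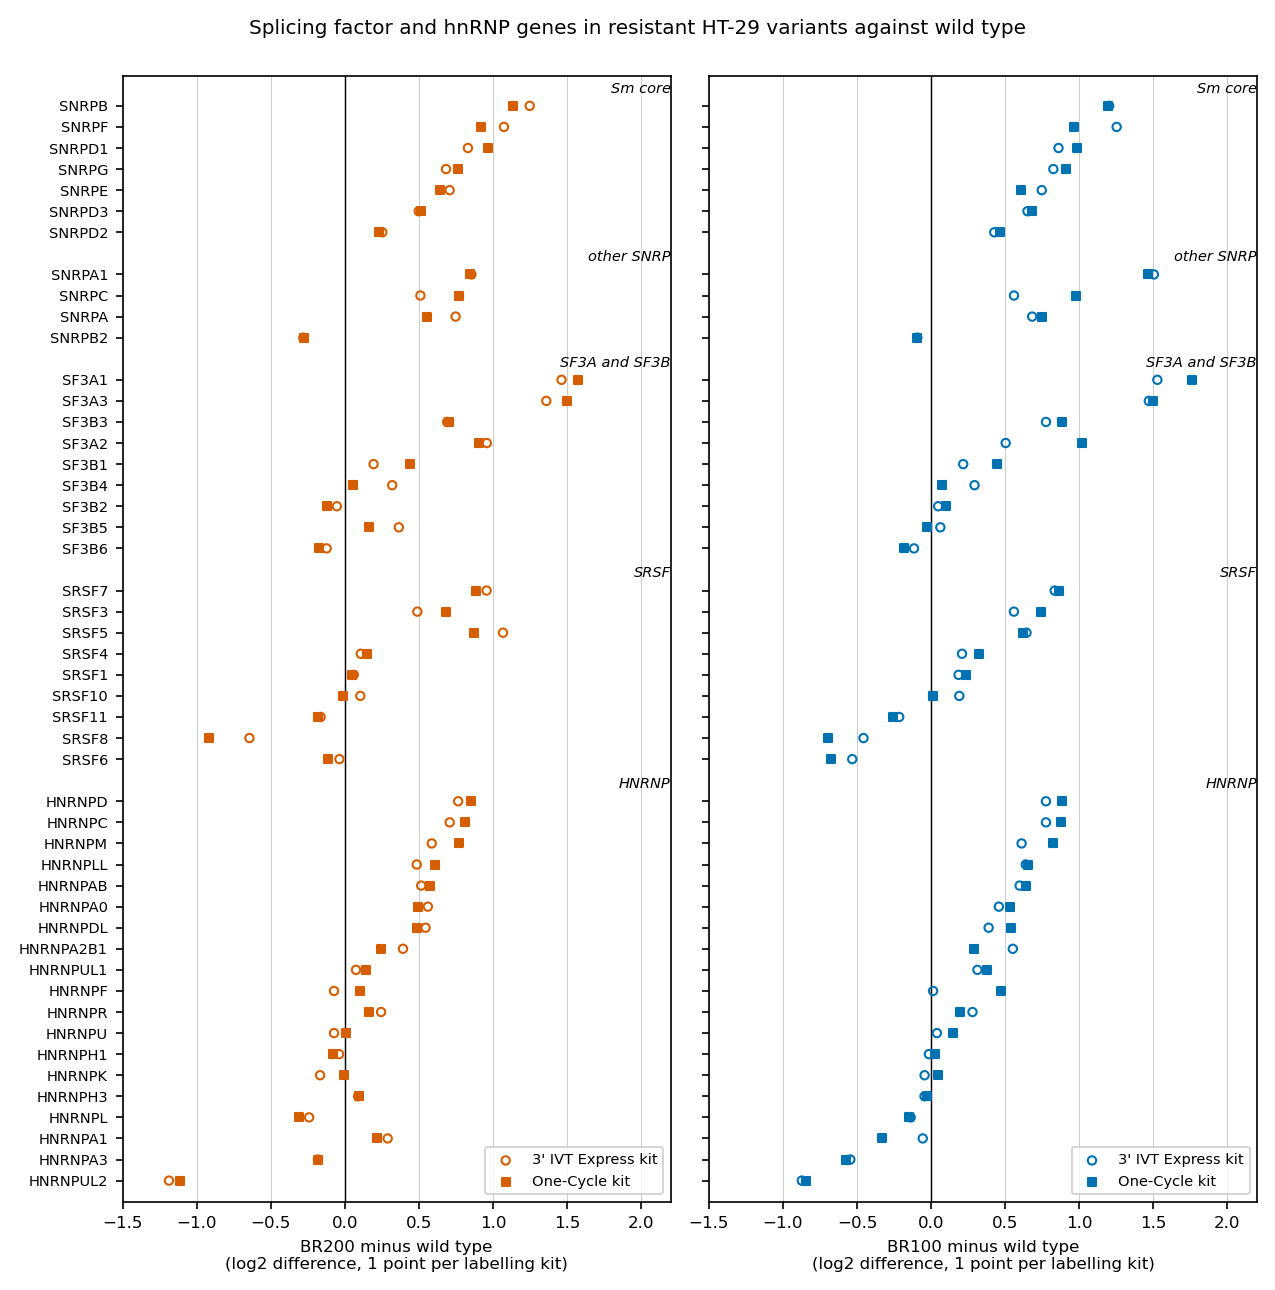
Log2 difference from wild type of each tested member outside the divergent transcripts, BR200 in the left panel and BR100 in the right one, with an open circle for the pair of Express arrays and a filled square for the pair of One-Cycle arrays. All 7 Sm genes lie right of 0 with both kits in both variants, while the SRSF and HNRNP genes spread to both sides.

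The Sm ring proteins, which every major snRNP but U6 carries, rose together. All 7 tested Sm genes were called higher in both variants, with a median log2 difference of 0.72 in BR200 and 0.87 in BR100. Each array value below is given with the Express array first and the One-Cycle array second. SNRPB, which encodes the B and B′ proteins of the ring, was at 12.63 and 12.87 in BR200 and 12.58 and 12.93 in BR100, against 11.38 and 11.74 in wild type. Its log2 difference was 1.19 ± 0.07 (SE) in BR200 and 1.20 ± 0.07 in BR100, a 2.29-fold rise in each (limma adjusted p = 0.000397 and 0.000358). All 4 resistant arrays lay above both wild type arrays. SNRPF, another ring protein, was at 12.46 and 11.98 in BR200 and 12.64 and 12.02 in BR100, against 11.39 and 11.06 in wild type. It rose 2.00-fold in BR200 (limma adjusted p = 0.00127, SE 0.09 on the log2 scale) and 2.15-fold in BR100 (log2 difference 1.11 ± 0.09, adjusted p = 0.000876). The kits gave different levels of SNRPF within each variant, but all 4 resistant arrays lay above both wild type arrays, while BR200 and BR100 overlapped. SNRPD1, which pairs with SNRPD2 in the ring, was at 12.89 and 12.72 in BR200 and 12.92 and 12.74 in BR100, against 12.06 and 11.76 in wild type. Its log2 difference was 0.90 ± 0.07 in BR200 (adjusted p = 0.000852, limma) and 0.92 ± 0.07 in BR100 (adjusted p = 0.000722).

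The other 4 Sm genes moved the same way by less. SNRPG rose by 0.72 on the log2 scale in BR200 and by 0.87 in BR100, SNRPE by 0.68 in each, and SNRPD3 by 0.51 in BR200 and 0.67 in BR100. SNRPD2 rose least, by 0.24 ± 0.07 in BR200 (limma adjusted p = 0.0301) and by 0.45 ± 0.07 in BR100 (adjusted p = 0.0043). The BR200 call of SNRPD2 was lost whichever of the 6 arrays was left out; the other 6 Sm calls in BR200, and all 7 in BR100, held in all 6 fits. Where a second Sm probe set was called it rose too: that of SNRPB by 1.12 in BR200 and 1.01 in BR100, that of SNRPD1 by 0.76 in each, and that of SNRPE by 0.60 in BR200 and 1.04 in BR100. Another SNRPE probe set, at levels of 3.98 to 4.53, gave −0.05 in BR200 and −0.32 in BR100 and was not called. The class median stayed between 0.71 and 0.77 in BR200 and between 0.83 and 0.91 in BR100 when 1 array was left out.

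Of the 4 proteins particular to the U1 or U2 snRNP, 3 were higher in both variants. SNRPA1, protein A′ of the U2 snRNP, changed most. It was at 13.25 and 12.98 in BR200 and 13.90 and 13.60 in BR100, against 12.40 and 12.14 in wild type. The log2 difference was 0.85 ± 0.06 in BR200 (1.80-fold, limma adjusted p = 0.000708) and 1.49 ± 0.06 in BR100 (2.80-fold, adjusted p = 0.000193). The variants did not overlap: BR100 was highest, BR200 between, and wild type lowest. Other SNRPA1 probe sets rose more, by 1.22 and 1.25 in BR200 and by 2.21 and 2.10 in BR100. A further one gave 0.31 in BR200 and 0.33 in BR100 and was not called. SNRPA, protein A of the U1 snRNP, was at 10.56 and 11.29 in BR200 and 10.49 and 11.47 in BR100, against 9.81 and 10.73 in wild type. SNRPA rose by 0.65 ± 0.09 in BR200 (limma adjusted p = 0.00375) and 0.71 ± 0.09 in BR100 (adjusted p = 0.0027). The kits moved SNRPA by more than the variants did, so that the One-Cycle array of wild type lay above the Express arrays of both resistant variants, and the rise is seen within each kit. SNRPC, protein C of the U1 snRNP, was at 11.16 and 10.84 in BR200 and 11.21 and 11.05 in BR100, against 10.65 and 10.07 in wild type. SNRPC rose by 0.64 ± 0.12 in BR200 (limma adjusted p = 0.00973) and 0.77 ± 0.12 in BR100 (adjusted p = 0.00522); without either BR200 array the BR200 call was lost.

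SNRPB2, which encodes protein B″ and binds U2 RNA together with protein A′, went the other way. It was at 12.37 and 12.28 in BR200 and 12.56 and 12.46 in BR100, against 12.65 and 12.55 in wild type. SNRPB2 fell by 0.28 on the log2 scale in BR200 (SE 0.06, limma adjusted p = 0.018), and its difference in BR100 was −0.09 ± 0.06 (adjusted p = 0.25). The BR200 call was lost without any 1 of the BR200 or wild type arrays, and the difference between BR200 and BR100, −0.18 ± 0.06, was not called (adjusted p = 0.142).

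The SF3A complex rose as a whole, while the SF3B complex was mixed. All 3 SF3A genes were called higher in both variants. Of the 6 SF3B genes, 3 were called higher in BR200 and 2 in BR100, and none was called lower. SF3A1, which bridges the SF3A subunits and the U2 snRNP, was at 10.18 and 10.15 in BR200 and 10.24 and 10.34 in BR100, against 8.71 and 8.58 in wild type. Its log2 difference was 1.52 ± 0.09 in BR200 (2.86-fold, limma adjusted p = 0.000356) and 1.64 ± 0.09 in BR100 (3.13-fold, adjusted p = 0.000273). By the probe sets that stand for the genes, this was the largest of the 49 members in both comparisons. The other SF3A1 probe sets gave less: 1.12, 0.98 and 0.51 in BR200 and 1.08, 1.15 and 0.54 in BR100. The last of them was not called in either variant. SF3A3, the subunit that SF3A needs to join U2, was at 9.97 and 9.82 in BR200 and 10.08 and 9.82 in BR100, against 8.61 and 8.32 in wild type. It rose 2.69-fold in BR200 (1.43 ± 0.07, limma adjusted p = 0.000292) and 2.80-fold in BR100 (1.48 ± 0.07, adjusted p = 0.000246). For both genes the resistant arrays stood more than 1 log2 unit above the wild type arrays with no overlap.

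SF3A2, the remaining subunit, had low levels: 6.69 and 6.13 in BR200 and 6.23 and 6.24 in BR100, against 5.73 and 5.22 in wild type. It rose by 0.93 ± 0.16 in BR200 (limma adjusted p = 0.00803) and 0.76 ± 0.16 in BR100 (adjusted p = 0.0144). The BR200 call was lost without the BR200 Express or the wild type One-Cycle array, and the BR100 call without either wild type array. SF3B3, a scaffold of SF3B, was at 10.40 and 10.80 in BR200 and 10.48 and 10.98 in BR100, against 9.71 and 10.09 in wild type. SF3B3 rose by 0.70 ± 0.07 in BR200 (limma adjusted p = 0.00147) and 0.83 ± 0.07 in BR100 (adjusted p = 0.000837). Its second probe set, at 5.79 to 6.45, gave −0.03 and −0.02 and was not called.

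SF3B1, which clasps the branch point and is the splicing factor most often mutated in cancer, was at 12.99 and 13.36 in BR200 and 13.01 and 13.37 in BR100, against 12.80 and 12.92 in wild type. It rose by 0.32 ± 0.09 in BR200 (limma adjusted p = 0.0363) and 0.33 ± 0.09 in BR100 (adjusted p = 0.0306). All 5 SF3B1 probe sets were called higher in BR100, by 0.31 to 0.72; in BR200 1 of the 5 was, at 0.39, and the other 4 gave 0.21 to 0.42 (limma adjusted p = 0.0519 to 0.155 among probe sets). Each of the SF3B1 gene calls was lost in 5 of the 6 fits that left out 1 array, all but the one without the wild type Express array. SF3B5, a small subunit, rose by 0.26 ± 0.08 in BR200 (limma adjusted p = 0.0416) and gave 0.02 ± 0.08 in BR100 (adjusted p = 0.855); its BR200 call was lost whichever array was left out. SF3B2, SF3B4 and SF3B6 gave differences of −0.15 to 0.19 in the 2 variants, and none was called. A second SF3B6 probe set was at 2.72 and 2.78 in BR200 and 2.46 and 2.46 in BR100, against 4.14 and 4.51 in wild type. Its differences were −1.57 in BR200 and −1.87 in BR100. It was tested only because both wild type arrays reached 4, so the filter fixed the direction and no p is given. It is still counted among the lower probe set calls below. Its levels in the resistant variants were near the lowest value of the arrays. Over the 9 genes the median was 0.32 in BR200 and 0.33 in BR100. With probe sets ending _s_at and _x_at left out the median was 0.09 and 0.19, over fewer genes. SF3A3, SF3B4 and SF3B5 have no other probe sets and dropped out.

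**Figure D2:**
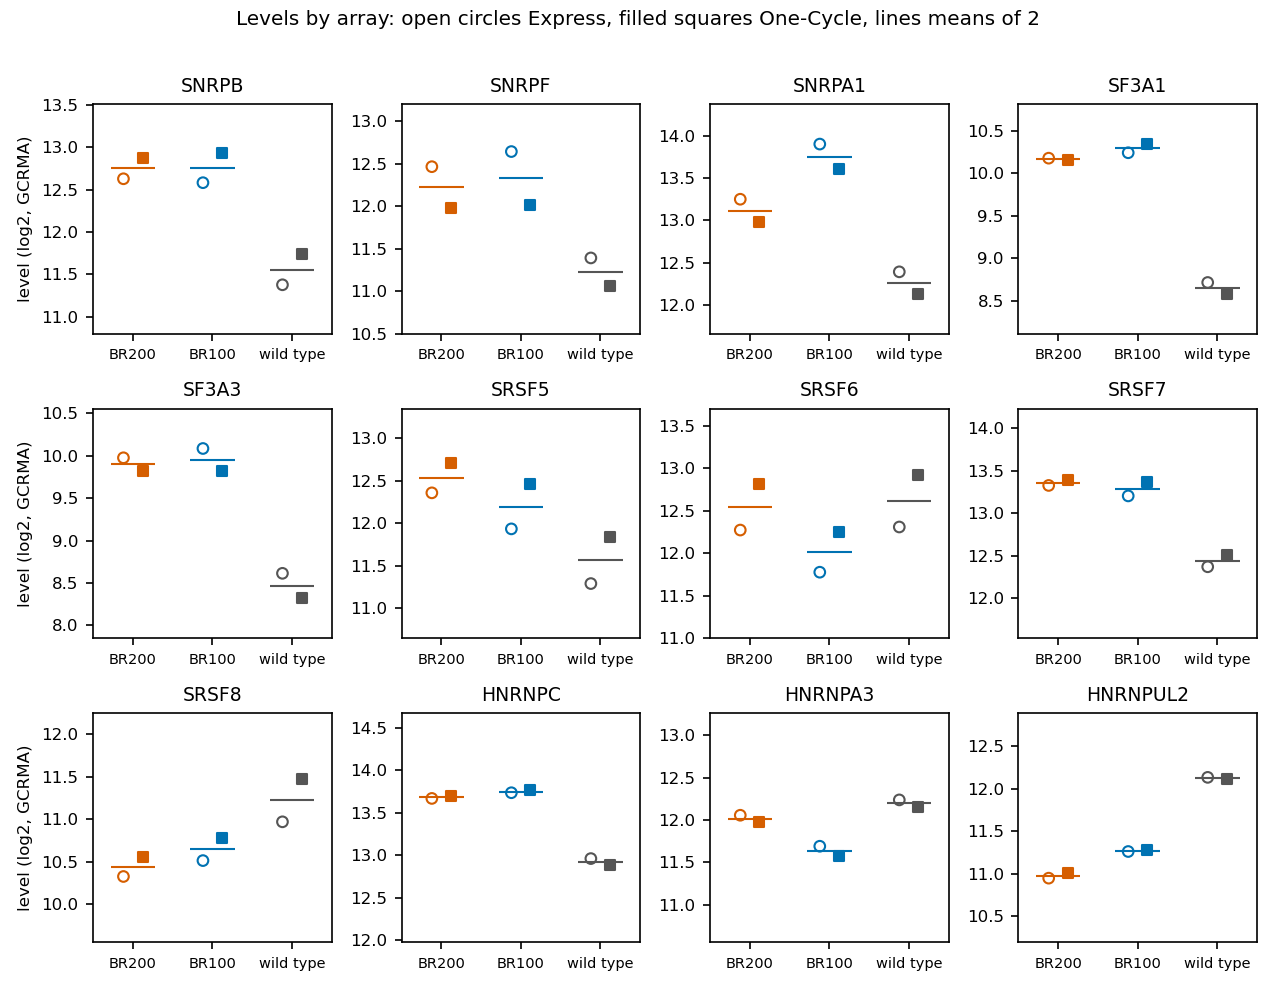
Log2 GCRMA level of 12 members on each array, with open circles for Express arrays, filled squares for One-Cycle arrays and a line at the mean of the 2. SNRPB, SF3A1 and SF3A3 are high in BR200 and BR100 alike, SNRPA1 is highest in BR100, SRSF6 and HNRNPA3 are lowest in BR100, and HNRNPUL2 is highest in wild type.

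The SR proteins had calls in both directions, as genes at large did. In BR200, 3 of 9 tested SRSF genes rose and 1 fell (33.3% and 11.1%, beside 35.4% and 31.2% of all genes). In BR100, 5 rose and 3 fell (55.6% and 33.3%, beside 36.7% and 31.8%). SRSF7, an SR protein with a zinc knuckle, was at 13.33 and 13.39 in BR200 and 13.20 and 13.37 in BR100, against 12.37 and 12.50 in wild type. It rose by 0.92 ± 0.07 in BR200 (1.89-fold, limma adjusted p = 0.000677) and 0.85 ± 0.07 in BR100 (1.80-fold, adjusted p = 0.000747). The resistant arrays lay well above wild type, but the other 2 SRSF7 probe sets gave only 0.14 and 0.22 in BR200 and 0.23 and 0.19 in BR100, none called. SRSF3, the smallest SR protein and a factor in both splicing and mRNA export, was at 13.89 and 13.91 in BR200 and 13.96 and 13.97 in BR100, against 13.40 and 13.23 in wild type. It rose by 0.59 ± 0.08 in BR200 (limma adjusted p = 0.00397) and 0.65 ± 0.08 in BR100 (adjusted p = 0.00272). SRSF5 was at 12.36 and 12.71 in BR200 and 11.94 and 12.46 in BR100, against 11.29 and 11.84 in wild type. SRSF5 rose by 0.97 ± 0.08 in BR200 (1.96-fold, limma adjusted p = 0.000936) and 0.63 ± 0.08 in BR100 (1.55-fold, adjusted p = 0.00295). SRSF5 lies on chromosome 14, where the median over 349 tested genes was 0.66 in BR200 and 0.63 in BR100; the part of the chromosome in its rise was not tested.

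SRSF8 fell in both variants. It encodes an SR protein that arose as a retrotransposed copy of SRSF2, so probes may read both. It was at 10.33 and 10.56 in BR200 and 10.51 and 10.78 in BR100, against 10.97 and 11.47 in wild type. SRSF8 fell by 0.78 on the log2 scale in BR200 (SE 0.10, limma adjusted p = 0.00267) and by 0.57 in BR100 (adjusted p = 0.00635); the BR100 call was lost without the BR100 One-Cycle array. All 4 SRSF8 probe sets were called lower in both variants, with differences down to −1.88 in BR200 and −1.98 in BR100. The 3 probe sets that name SRSF2 together with the microRNA gene MIR636 went the other way, with all 4 resistant arrays above both wild type arrays.

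By the probe sets that stand for them, SRSF6, SRSF11, SRSF1 and SRSF4 were called in BR100 and not in BR200. SRSF6, which favours exon inclusion, was at 12.27 and 12.81 in BR200 and 11.77 and 12.25 in BR100, against 12.31 and 12.93 in wild type. It differed by −0.07 ± 0.07 in BR200 (limma adjusted p = 0.412) and fell by 0.60 in BR100 (SE 0.07, adjusted p = 0.00233). SRSF11, an SR-related protein, was at 13.18 and 13.12 in BR200 and 13.13 and 13.04 in BR100, against 13.34 and 13.30 in wild type. Its difference was −0.17 ± 0.06 in BR200 (limma adjusted p = 0.0735) and −0.24 ± 0.06 in BR100 (adjusted p = 0.0293). Another SRSF11 probe set, with all 4 resistant arrays below both wild type arrays, was called lower in both variants, at −1.25 in BR200 (limma adjusted p = 0.00185) and −1.52 in BR100 (adjusted p = 0.00106). SRSF1, the prototype SR protein, was at 13.96 and 14.13 in BR200 and 14.09 and 14.31 in BR100, against 13.90 and 14.08 in wild type, and rose by 0.21 ± 0.07 in BR100 (adjusted p = 0.0434, limma). SRSF4 was at 9.99 and 10.16 in BR200 and 10.09 and 10.32 in BR100, against 9.88 and 10.00 in wild type, and rose by 0.26 ± 0.07 in BR100 (adjusted p = 0.0261, limma). In BR200 SRSF1 gave 0.06 and SRSF4 0.13. The BR100 calls of SRSF1, SRSF4 and SRSF11 were lost whichever array was left out. With the mean of all its probe sets in place of the one with the highest signal, the BR100 difference turned to 0.17 for SRSF6, −0.02 for SRSF1 and −0.72 for SRSF4. SRSF3 turned to −0.45 in BR100 when probe sets ending _s_at and _x_at were left out. That value is of a dimmer probe set, at 7.63 to 8.53, which was not called (limma adjusted p = 0.0876 among probe sets). In BR100, 3 brighter SRSF3 probe sets were called higher. SRSF10 gave 0.05 in BR200 and 0.10 in BR100 and was not called, while 2 of its other 4 probe sets were called higher in BR200 and 1 in BR100. The median of the class was 0.06 in BR200 and 0.21 in BR100, and the BR100 median turned to −0.23 once probe sets ending _s_at and _x_at were left out. That median is over fewer genes, since SRSF5 and SRSF6 have no other probe sets.

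Among the 19 tested HNRNP genes, 8 rose and 2 fell in BR200 (42.1% and 10.5%, beside 35.4% and 31.2% of all genes). In BR100, 10 rose and 2 fell (52.6% and 10.5%, beside 36.7% and 31.8%). HNRNPD, known as AUF1 for binding AU-rich elements in mRNA, was at 14.07 and 13.85 in BR200 and 14.08 and 13.89 in BR100, against 13.31 and 13.00 in wild type. It rose by 0.81 ± 0.07 in BR200 (1.75-fold, limma adjusted p = 0.000963) and 0.83 ± 0.07 in BR100 (1.78-fold, adjusted p = 0.000822). HNRNPC, which binds uridine-rich tracts of new transcripts, was at 13.67 and 13.70 in BR200 and 13.73 and 13.76 in BR100, against 12.96 and 12.88 in wild type. HNRNPC rose by 0.76 ± 0.07 in BR200 (1.69-fold, limma adjusted p = 0.00118) and 0.83 ± 0.07 in BR100 (1.77-fold, adjusted p = 0.000851). All 5 HNRNPC probe sets rose in both variants, by 0.63 to 1.05. HNRNPC also lies on chromosome 14, whose gene medians (0.66 and 0.63) were close to its own differences. HNRNPM, a regulator of alternative exons, was at 13.54 and 13.38 in BR200 and 13.56 and 13.43 in BR100, against 12.95 and 12.61 in wild type. It rose by 0.68 ± 0.08 in BR200 (limma adjusted p = 0.00278) and 0.72 ± 0.08 in BR100 (adjusted p = 0.00222).

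HNRNPAB, HNRNPLL, HNRNPA0, HNRNPDL and HNRNPA2B1 rose in both variants by 0.32 to 0.65 on the log2 scale. HNRNPR rose by 0.24 and HNRNPUL1 by 0.35 in BR100, and their BR200 values, 0.20 and 0.11, were not called. The BR100 call of HNRNPR was lost whichever array was left out, and that of HNRNPUL1 without either BR100 array. HNRNPA2B1, which sorts and splices many transcripts, was at 14.99 and 14.90 in BR200 and 15.15 and 14.94 in BR100, against 14.60 and 14.65 in wild type. Its rise was 0.32 ± 0.09 in BR200 (limma adjusted p = 0.033) and 0.42 ± 0.09 in BR100 (adjusted p = 0.0137). The HNRNPA2B1 call was lost without the wild type Express array in both variants, without either BR200 array in BR200, and without the BR100 Express array in BR100. HNRNPDL, a relative of HNRNPD, was at 13.50 and 13.30 in BR200 and 13.35 and 13.35 in BR100, against 12.96 and 12.81 in wild type. Its rise of 0.52 in BR200 was not called without the BR200 Express array, and its rise of 0.46 in BR100 was not called without the BR100 or the wild type One-Cycle array.

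Several of these rises turned when probe sets ending _s_at and _x_at were left out: HNRNPDL to −0.58 in BR200 and −0.93 in BR100, HNRNPA2B1 to −0.29 and −0.88, and, in BR100, HNRNPD to −0.37 and HNRNPM to −0.68. The HNRNPM value is of a dim probe set, at 4.66 to 6.02, not called in BR100 (limma adjusted p = 0.0797 among probe sets). In BR100, 2 brighter HNRNPM probe sets were called higher.

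HNRNPUL2, a protein related to HNRNPU, had the largest fall among the probe sets that stand for a member gene. It was at 10.95 and 11.01 in BR200 and 11.26 and 11.28 in BR100, against 12.14 and 12.12 in wild type. HNRNPUL2 fell by 1.15 on the log2 scale in BR200 (SE 0.07, a 2.22-fold difference, limma adjusted p = 0.000375) and by 0.86 in BR100 (1.81-fold, adjusted p = 0.000666). The kits differed by little and the variants did not overlap. HNRNPUL2 and SRSF8 both lie on chromosome 11, where the median over 614 tested genes was −0.21 in BR200 and −0.07 in BR100. The part of the chromosome in their falls was not tested. The other tested HNRNPUL2 probe set gave −0.24 in BR200 (limma adjusted p = 0.0544) and 0.00 in BR100 (adjusted p = 0.989) and was not called. HNRNPA3, an hnRNP of the A and B group, was at 12.06 and 11.98 in BR200 and 11.69 and 11.58 in BR100, against 12.24 and 12.15 in wild type. It differed by −0.18 ± 0.06 in BR200 (limma adjusted p = 0.0648) and fell by 0.56 in BR100 (SE 0.06, adjusted p = 0.00205). HNRNPA3 shares near-identical sequence with its pseudogene HNRNPA3P1, and 2 probe sets that name both were higher on all 4 resistant arrays than on the wild type arrays. In another that names both, the lowest resistant array equalled the highest wild type array, at 9.98. HNRNPL, which binds CA repeats, was at 11.74 and 9.76 in BR200 and 11.84 and 9.92 in BR100, against 11.98 and 10.07 in wild type. It fell by 0.28 in BR200 (SE 0.07, limma adjusted p = 0.0207), a call lost whichever array was left out, and differed by −0.14 in BR100 (adjusted p = 0.117). The kits differed far more than the variants for HNRNPL, and both HNRNPL probe sets were lower in BR200 within each kit.

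HNRNPA1, the best known splicing repressor of the family, was at 12.69 and 12.50 in BR200 and 12.34 and 11.95 in BR100, against 12.40 and 12.28 in wild type. It differed by 0.25 ± 0.09 in BR200 (limma adjusted p = 0.0708) and −0.19 ± 0.09 in BR100 (adjusted p = 0.131), neither called by the probe set that stands for the gene. Of its 3 tested probe sets, 2 were called lower in BR100, at −0.94 and −1.41. The latter was called lower in BR200 too, at −0.61. HNRNPK, which binds C-rich RNA, was at 13.78 and 13.92 in BR200 and 13.90 and 13.98 in BR100, against 13.95 and 13.93 in wild type, and was not called (−0.09 and 0.00). HNRNPU, a large protein of the nuclear scaffold, was at 13.85 and 13.98 in BR200 and 13.96 and 14.12 in BR100, against 13.92 and 13.97 in wild type, and was not called (−0.03 and 0.09). HNRNPF, HNRNPH1 and HNRNPH3, which bind G-rich RNA, gave −0.06 to 0.24 and were not called by the probe sets that stand for them. The other 3 HNRNPH3 probe sets were called higher in both variants, by 0.75 to 0.84 in BR200 and 0.90 to 0.99 in BR100. In BR100 a second HNRNPH1 probe set was called higher, at 0.50, and a second HNRNPK probe set lower, at −0.33; neither was called in BR200. The median of the HNRNP class was 0.20 in BR200 and 0.24 in BR100, and it turned to −0.07 and −0.37 once probe sets ending _s_at and _x_at were left out. HNRNPAB, HNRNPF, HNRNPH3 and HNRNPK have no other probe sets and dropped out of those medians. HNRNPD-DT, a transcript that starts next to HNRNPD in the opposite direction, was at 6.15 and 5.62 in BR200 and 5.41 and 5.42 in BR100, against 5.42 and 5.34 in wild type. Its rise of 0.50 ± 0.15 in BR200 (limma adjusted p = 0.0415) was lost without any 1 array but the BR200 One-Cycle array.

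Between the resistant variants, few members differed. In BR200 against BR100, 2 of 49 members were called higher and 1 lower, while 6.39% of all genes were called higher and 4.23% lower. SRSF6 was higher in BR200 by 0.53 ± 0.07 (limma adjusted p = 0.0281) and HNRNPA3 by 0.38 ± 0.06 (adjusted p = 0.0408). SNRPA1 was lower in BR200, with a log2 difference of −0.63 ± 0.06 (limma adjusted p = 0.0173). Each of the 3 held its direction within both kits, but each call was lost whichever array was left out, without the kit block, and in a fit of the 4 resistant arrays alone. Without adjustment, 6 members had a p under 0.05 towards BR200 and 5 towards BR100. HNRNPA1, at 0.45 ± 0.09 (limma adjusted p = 0.0562), SRSF5, at 0.34 ± 0.08 (adjusted p = 0.0754), and HNRNPUL2, at −0.29 ± 0.07 (adjusted p = 0.0668), were nearest to the threshold.

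The probe sets of 1 gene often gave different answers. They share the RNA of the array and are not replicates. Of the 158 member probe sets, 135 were tested on their own among 19055 probe sets. In BR200, 61 were called higher and 16 lower, while 29.7% of all probe sets were called higher and 29.8% lower. In BR100, 64 were called higher and 26 lower, while 32% of all probe sets were called higher and 30.9% lower. Of the 35 member genes with at least 2 tested probe sets, 4 had calls in both directions in BR200, against 5.67% of the 5081 such genes, and 7 in BR100, against 8.33%. The median gap between the highest and lowest probe set of a member gene was 0.72 in BR200 and 1.03 in BR100, against 0.48 and 0.56 over all such genes. Such a gap, like the chance of opposite calls, grows with the number of probe sets of a gene, which was not matched. In BR200 against BR100 no member gene had calls in both directions in limma, against 0.0984% of genes; at an unadjusted p under 0.05, 1 did. The number of genes with calls in both directions dropped to between 0 and 3 in BR200 and between 3 and 6 in BR100 when 1 array was left out.

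In BR200 the genes with opposite calls were HNRNPD, HNRNPU, HNRNPDL and HNRNPA2B1, and in BR100 they were these 4 with SRSF1, SRSF4 and SRSF6. No Sm, other snRNP or SF3 gene was among them. HNRNPD had 6 tested probe sets, with differences from −0.42 to 1.48 in BR200 and from −0.46 to 1.43 in BR100. Of these, 3 rose in both variants, and 1, at 7.60 and 7.58 in BR200 and 7.63 and 7.47 in BR100 against 8.11 and 7.91 in wild type, fell in both. HNRNPU had 5, of which the one with the highest mean was not called, another rose by 0.34 in BR200 and 0.51 in BR100, and 2 fell. One of those 2 was at 4.33 and 4.12 in BR200 and 4.17 and 4.33 in BR100, against 5.65 and 5.28 in wild type, a difference of −1.24 ± 0.15 in BR200 and −1.21 ± 0.15 in BR100. Of the 5 HNRNPDL probe sets, 3 rose in BR200 and 2 in BR100, while 1 fell, with differences of −0.58 in BR200 and −0.93 in BR100. HNRNPA2B1 had 1 probe set that rose in both variants and 1 that fell in both, which was at 10.62 and 11.01 in BR200 and 10.01 and 10.45 in BR100, against 10.99 and 11.23 in wild type.

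**Figure D3:**
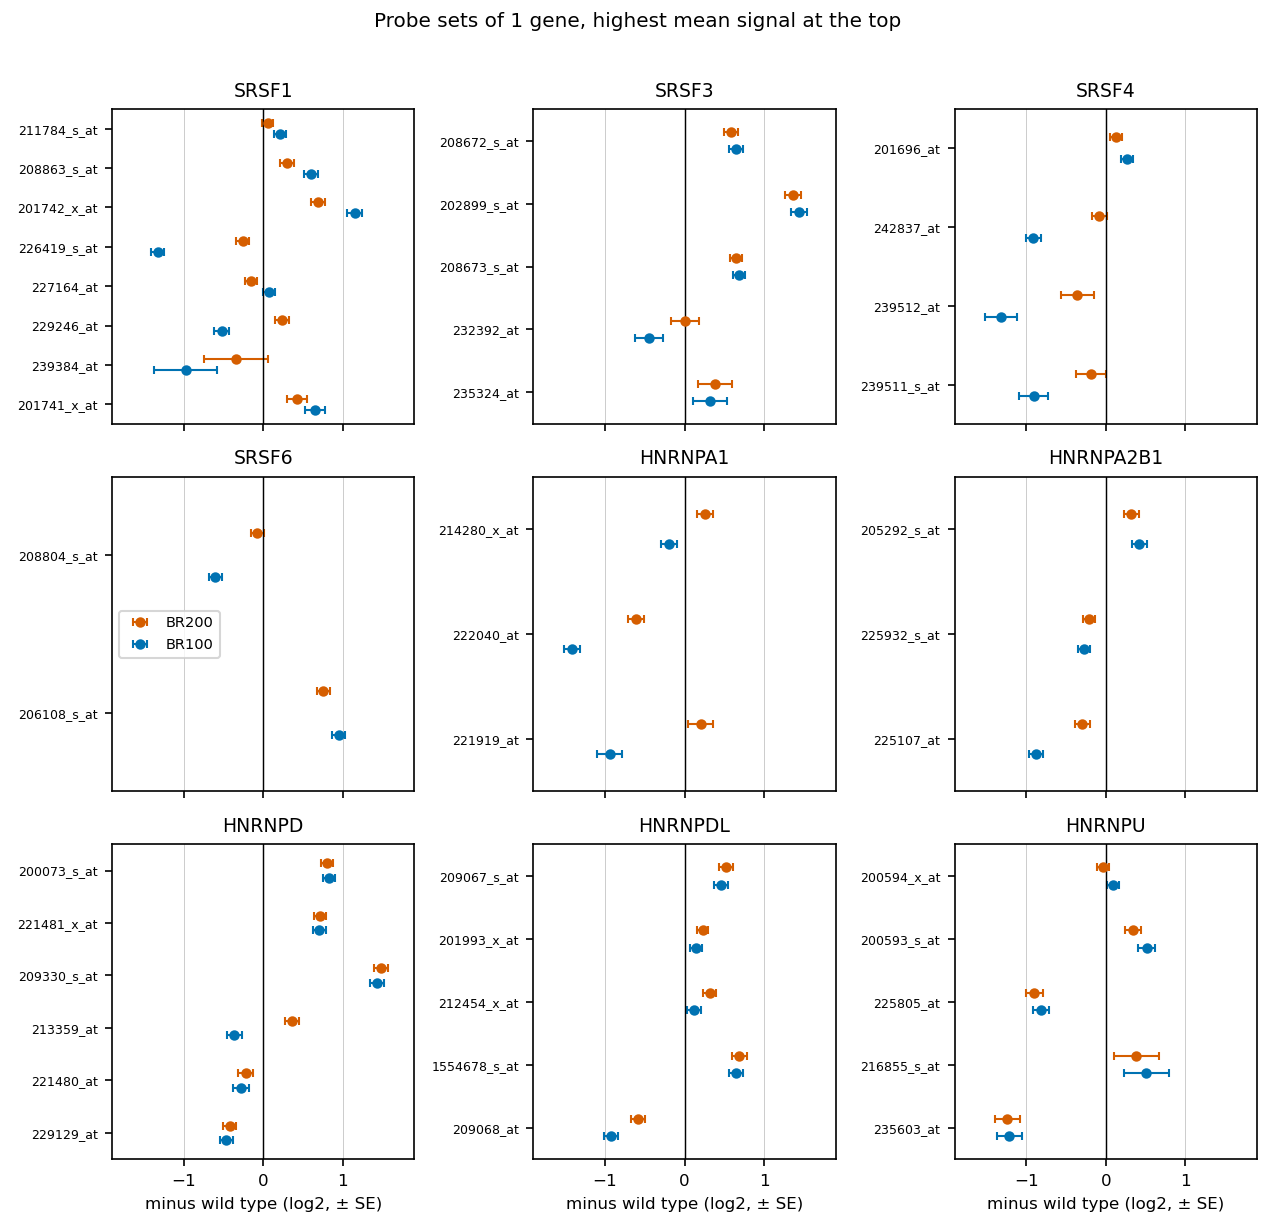
Log2 difference from wild type, with its SE, of each tested probe set of 9 member genes, ordered by mean level with the highest at the top; BR200 is drawn above BR100. The top probe sets of SRSF1, SRSF4, HNRNPA2B1, HNRNPD and HNRNPDL lie right of 0 in BR100, while other probe sets of the same genes lie left of it.

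The SRSF1 probe sets spread widest in BR100, where 3 of the 8 rose, with differences up to 1.15, and 2 fell, with differences down to −1.32. One of the 3 that rose was at 3.22 to 4.52, near the lowest value of the arrays. It was tested only because the One-Cycle arrays of BR100 and BR200 reached 4, so its rise carries no weight. The one at −1.32 was at 9.53 and 9.52 in BR200 and 8.52 and 8.39 in BR100, against 9.76 and 9.80 in wild type, so that the BR100 arrays stood apart from the other 4. Of the 4 SRSF4 probe sets, the one with the highest mean rose by 0.26 in BR100 and the other 3 fell there, with differences down to −1.32 ± 0.21. The one at −1.32 had low levels, 4.18 to 6.84 over the arrays. Another that fell was at 2.23 to 4.76, near the lowest value of the arrays, and was tested only through the One-Cycle arrays of BR200 and wild type. Both enter the mean of the SRSF4 probe sets given above. The SRSF6 probe sets were split. One was at 9.08 and 6.74 in BR200 and 9.35 and 6.86 in BR100, against 8.40 and 5.90 in wild type, and rose by 0.75 in BR200 and 0.95 in BR100, while the one that stands for the gene fell in BR100. The part of each transcript that a probe set reads was not analysed here, and the ACTB gap given above, which depends on that position too, differed between the same variants.

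At the level of probe sets, 9 members were higher and 3 lower in BR200 than in BR100, while 3.96% of all probe sets were higher and 1.74% lower. The 3 lower ones were all of SNRPA1, at −0.63, −0.99 and −0.85. The 9 higher ones belonged to HNRNPA1 (1.14 and 0.80), SRSF1 (1.07 and 0.76), HNRNPA3 (0.83), SRSF4 (0.83), HNRNPD (0.73), HNRNPA2B1 (0.58) and SRSF6 (0.53). All 9 were called lower in BR100 than in wild type. The HNRNPD probe set was at 11.04 and 11.22 in BR200 and 10.19 and 10.61 in BR100, against 10.58 and 10.96 in wild type, and was called higher than wild type in BR200 and lower in BR100. One of the HNRNPA1 probe sets was at 10.34 and 9.79 in BR200 and 9.52 and 9.01 in BR100, against 10.81 and 10.54 in wild type, so that it was lower in both variants and lowest in BR100. None of these 12 calls held in all 6 fits that left out 1 array, and all 12 were lost without the kit block.

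A split of the member probe sets by the sequence they were designed from, chosen after their values were seen, gave different counts. Of 33 probe sets designed from RefSeq transcripts, 21 rose and 2 fell in BR200 and 23 rose and 1 fell in BR100, with medians of 0.55 and 0.65. Of 37 designed from expressed sequence tags, 9 rose and 7 fell in BR200 and 10 rose and 13 fell in BR100, with medians of 0.00 in each. The array as a whole leaned the same way: 36.3% of 5256 RefSeq-based probe sets rose and 25.5% fell in BR200, and 23.5% of 6096 tag-based ones rose and 36.5% fell. In BR100 these shares were 39.6% and 26.1% of the RefSeq-based probe sets and 25.2% and 37.8% of the tag-based ones. By probe set type, 32 of 53 member probe sets ending _s_at, which read several transcripts of a gene or gene family, rose in BR200 and 1 fell, while 33.8% of all tested _s_at probe sets rose and 26.8% fell. In BR100, 35 of these 53 rose and 7 fell, while 36.5% of all _s_at probe sets rose and 26.8% fell. Of 58 ending _at, 14 rose and 13 fell in BR200, while 27.3% of all _at probe sets rose and 33.4% fell. In BR100, 15 of the 58 rose and 17 fell, while 29.1% of all _at probe sets rose and 34.8% fell. This is a description with no test.

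The labelling kit moved some members more than the variants did. Over the 135 probe sets the kit difference, Express minus One-Cycle, had a median of −0.02, but it was at least 1 in 5 and at most −1 in 7, with a range of −2.37 to 2.95. The 2 probe sets of HNRNPL were among the largest. Every variant had 1 array per kit, so the kit is balanced over the comparisons.

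The rest of the splicing machinery was followed through 9 lists with 132 genes in all, of which 120 were tested. Of these, 57 rose and 16 fell in BR200, and 65 rose and 12 fell in BR100, with medians of 0.24 and 0.35. Over all tested genes 35.4% rose and 31.2% fell in BR200, and 36.7% rose and 31.8% fell in BR100, the shares beside which each list's count stands. The LSM proteins, which form rings like the Sm proteins on U6 RNA and on decaying mRNA, had the highest median of the 9 lists: 6 of 8 rose in both variants, with a median of 1.05 in BR200 and 1.12 in BR100. LSM3 was at 12.36 and 12.08 in BR200 and 12.39 and 12.20 in BR100, against 10.61 and 10.59 in wild type, a 3.07-fold rise in BR200 (limma adjusted p = 0.000353) and a 3.22-fold rise in BR100 (adjusted p = 0.000288). The proteins that load Sm rings onto snRNAs rose as well, 9 of 15 with 1 fall in BR200 and 12 of 15 with no fall in BR100. Among them, GEMIN5, which recognises snRNAs, was at 9.34 and 9.41 in BR200 and 9.85 and 9.99 in BR100, against 7.78 and 7.94 in wild type. GEMIN5 rose 2.85-fold in BR200 and 4.15-fold in BR100, and was lower in BR200 than in BR100 by −0.55 (limma adjusted p = 0.0239). GEMIN2 rose 3.63-fold in BR200 and 3.70-fold in BR100, and PRMT5, which methylates Sm proteins, 3.00-fold and 3.39-fold. Both GEMIN2 and PRMT5 lie on chromosome 14, whose median over 349 tested genes was 0.66 in BR200 and 0.63 in BR100. The part of the chromosome in their rises was not tested.

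Other parts of the spliceosome were less uniform. Of 16 proteins of the tri-snRNP, 8 rose and 2 fell in BR200 and 7 rose and 2 fell in BR100; EFTUD2, its GTPase, rose 2.10-fold in BR200 and 2.39-fold in BR100. Of 13 other U1, U2 and 3′ splice site factors, 5 rose in BR200 and 7 in BR100, led by the helicase DDX46 (2.46-fold and 2.77-fold). Of 8 minor spliceosome genes, 5 rose and 1 fell in BR200 and 4 rose in BR100; SNRNP25 rose 4.11-fold and 5.32-fold. Of 16 genes of the PRP19 complex and the spliceosomal helicases, 7 rose and 2 fell in BR200 and 9 rose and 2 fell in BR100. SLU7, which acts in the later step of splicing, fell by 0.27 in BR200 and by 0.74 in BR100, and was higher in BR200 than in BR100 by 0.47 (limma adjusted p = 0.0289). Of 9 exon junction and nonsense-mediated decay genes, 4 rose and 2 fell in BR200 and 5 rose in BR100, with MAGOHB, a core subunit of the junction complex, up 2.15-fold and 2.79-fold.

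Regulators of alternative splicing had calls in both directions, as did all genes tested. Of 14 SR protein kinases and SR-related proteins, 4 rose and 4 fell in BR200 and 4 rose and 3 fell in BR100; TRA2A, an SR-like activator, rose 2.08-fold and 2.16-fold. Of 21 other regulators, 9 rose and 4 fell in BR200 and 11 rose and 5 fell in BR100. ESRP1, which drives epithelial splice forms, was at 11.59 and 11.49 in BR200 and 11.68 and 11.72 in BR100, against 13.18 and 13.10 in wild type. ESRP1 fell by 1.60 on the log2 scale in BR200 (limma adjusted p = 0.000248) and by 1.44 in BR100 (adjusted p = 0.000272). MBNL2, a relative of the muscleblind factor that opposes fetal splicing, fell by 1.40 in BR200 and 1.47 in BR100. RBM4 was higher in BR200 than in BR100 by 0.59 (limma adjusted p = 0.045).

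**Figure D4:**
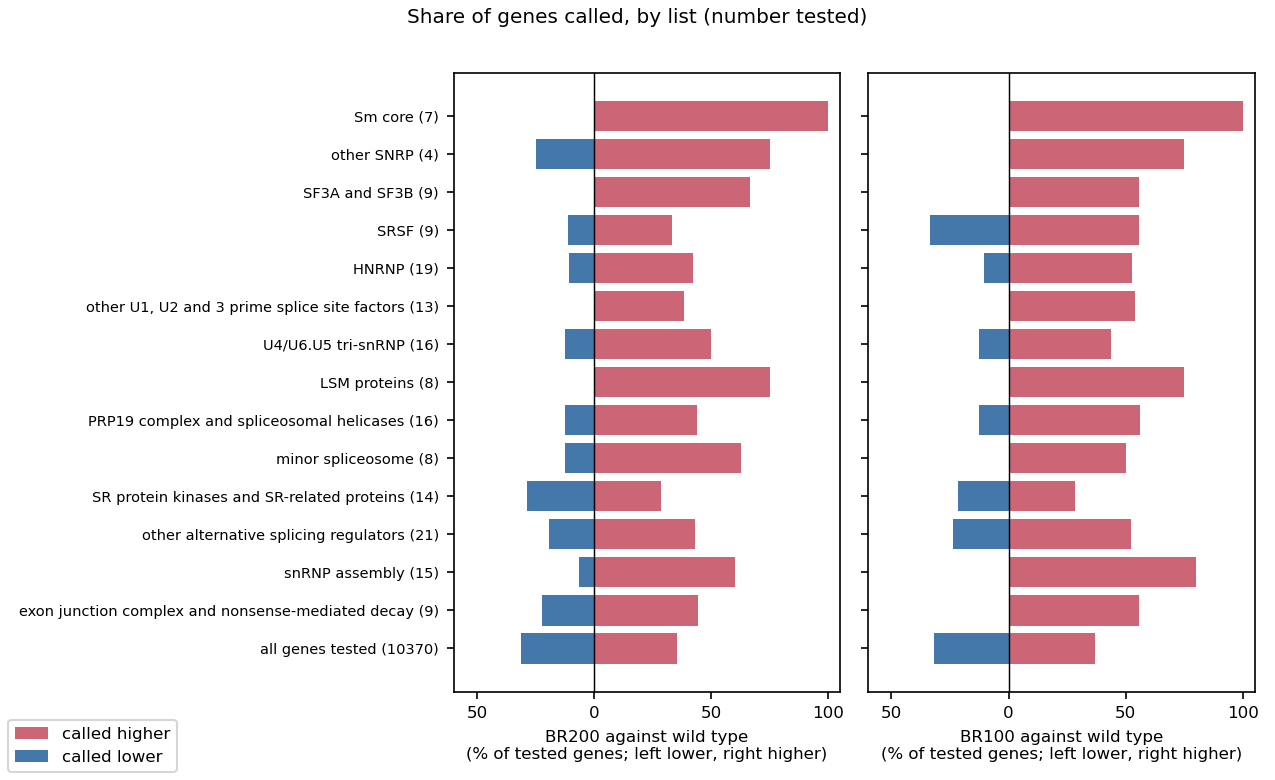
Percent of the tested genes of each class or list that were called higher (to the right) or lower (to the left) than wild type, with BR200 in the left panel, BR100 in the right one and all 10370 tested genes in the bottom row. All 7 Sm genes and 6 of 8 LSM genes are called higher in each variant, while the SR kinases and other regulators have calls on both sides, as the bottom row has.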

How the data were processed

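RNA of 6 HT-29 samples was hybridised to Affymetrix arrays of 54675 probe sets, 2 per variant. The authors deposited log2 expression values, 1 per probe set and array, made with GCRMA per the submitters' processing notes, whose version is not given in the sources used here. GCRMA corrects background and summarises the probes, so low values crowd at a shared floor, held by 34.9% to 35.3% of each array's values. No detection calls were used; the number of arrays limits the precision.

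Genes were named from the array's annotation, and their symbols were checked against RefSeq. Each gene was represented by its brightest probe set naming it alone. One model over the 6 arrays, with variant and labelling kit as terms, was fitted to all 10370 genes in limma (version 3.58.1, under R 4.3.3; lmFit then eBayes), two-sided, with Benjamini-Hochberg adjustment over all of them and calls under 0.05. It had 2 residual degrees of freedom and a prior of 2.33. Probe sets were tested the same way among 19055. Errors are limma's SE. The kit pairs arrays of different variants by the titles; over 10370 genes the kit difference correlated between variants at r = 0.762 to 0.845. The pipeline was tested on simulated data.

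The members, lists and tests were chosen with earlier results of these data known. Array values are given for up to 3 called members per class, comparison and direction with the largest change, up to 6 genes with opposite probe set calls and 10 genes whatever their values; other lists give up to 3 called genes. The alternatives were no kit block, other filters (none, or log2 6), quantile normalization, an intensity trend with a robust prior, only the 4 arrays compared, each array left out, the mean of a gene's probe sets, and no _s_at or _x_at probe sets. Tables were handled with pandas 2.3.3.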

Additional observations from a re-analysis of the deposited data

Results flagged for a closer look

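Between BR200 and BR100, 3 member genes differed by the test of that difference in limma, each with both wild type differences given above. HNRNPA3 was higher in BR200 by 0.3796 on the log2 scale and SRSF6 by 0.5298, and SNRPA1 was lower in BR200, at −0.6347. At the level of single probe sets, 12 differed. Those of SNRPA1 gave −0.6347, −0.9863 and −0.8474, all lower in BR200. Those of HNRNPA1 gave 1.1423 and 0.8035, and those of SRSF1 gave 1.0685 and 0.7559. Single probe sets of HNRNPA3 (0.8324), SRSF4 (0.8294), HNRNPD (0.7293), HNRNPA2B1 (0.5818) and SRSF6 (0.5298) were also higher in BR200.

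There were 25 probe sets that name several genes, at least 1 with a symbol beginning used here, and so enter none of the comparisons above. Of these, 8 had all 4 resistant arrays at 4 or more and above both wild type arrays. Those that name SRSF9 or HNRNPA1 were among the ones that did not. Only this direction was searched for, and the share of all probe sets that meet the rule was not counted. For SRSF2, the SR protein first known as SC35, with the microRNA gene MIR636, the lowest resistant array exceeded the highest wild type array by 0.8725, 0.8089 and 1.2505 in the 3 probe sets. The last of these was at 13.27 (Express) and 13.39 (One-Cycle) in BR200 and 13.50 and 13.65 in BR100, against 11.91 and 12.02 in wild type. For HNRNPA3 with its pseudogene HNRNPA3P1, gaps were 0.2578 and 0.3348 in 2 probe sets and 0.0 in another. The HNRNPA3 probe set that stands for the gene was lower in BR100. Gaps for single probe sets were 0.5021 for BSCL2 with the readthrough HNRNPUL2-BSCL2, 0.4272 for HNRNPCL1 with HNRNPCL2, HNRNPCL3 and HNRNPCL4, and 0.0269 for HNRNPH2 with RPL36A-HNRNPH2. Which of the named genes these signals come from was not tested.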

How the results depend on the processing

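The number of arrays was the main limit: the fit had 2 residual degrees of freedom, and the smallest called difference from wild type among the members was 0.21. The kit pairs arrays across variants. Without it as a replicate block, 16 members rose and 2 fell in BR200, 18 rose and 2 fell in BR100, and 0 and 0 were called in BR200 against BR100 (1 and 2 at an unadjusted p under 0.05); genes with opposite probe set calls numbered 0, 1 and 0. Leaving out 1 array gave 20 to 24 rises and 2 to 3 falls in BR200, 24 to 26 and 3 to 4 in BR100, and 0 and 0 in BR200 against BR100, with 0 to 3, 3 to 6 and 0 genes of opposite calls. Falls in BR200 numbered 2 without either BR200 or either wild type array, and falls in BR100 3 without the BR100 One-Cycle array. Opposite calls in BR200 numbered 0 without its One-Cycle array, 1 without its Express array and 2 without either BR100 array or the wild type Express array; those in BR100 numbered 3 without either BR100 array.

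Without _s_at and _x_at probe sets, 39 members were tested: 15 rose and 9 fell in each variant, 4 were higher and 0 lower in BR200 against BR100, and 1 gene in each variant had opposite calls. An intensity trend with a robust prior gave 7 falls and 7 genes of opposite calls in BR200, and 5 members higher, 6 lower and 1 of opposite calls in BR200 against BR100. With no filter, 1 gene in BR200 and 2 in BR100 had opposite calls, and 0 members were higher in BR200 than in BR100. With only the 4 arrays compared, 2 genes had opposite calls in BR200, and 0 and 0 members were called in BR200 against BR100. With the mean of a gene's probe sets 8 members fell in BR100, and with a filter at 6 opposite calls in BR200 against BR100 numbered 1.

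Log2 differences turned as follows without _s_at and _x_at probe sets: in BR200, HNRNPDL −0.5818, HNRNPA2B1 −0.2947 and HNRNPA1 −0.6097; in BR100, SF3B3 −0.0152, SRSF3 −0.4457, HNRNPD −0.3661, HNRNPM −0.6848, HNRNPU −0.8178, HNRNPDL −0.9256 and HNRNPA2B1 −0.8765; in BR200 against BR100, HNRNPA2B1 0.5818. The values of SF3B3, SRSF3 and HNRNPM in BR100 are of dimmer probe sets that were not called when probe sets were tested. With the mean of the probe sets, differences turned for HNRNPA2B1 (−0.0622 in BR200, −0.2433 in BR100) and, in BR100, SRSF6 (0.1737), SRSF1 (−0.0174) and SRSF4 (−0.7195).

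Class medians without _s_at and _x_at probe sets were 0.6818 (Sm), 0.4769 (other SNRP), 0.0935 (SF3), 0.0060 (SRSF) and −0.0717 (HNRNP) in BR200. In BR100 they were 0.5223 (other SNRP), 0.1920 (SF3), −0.2294 (SRSF) and −0.3661 (HNRNP), and in BR200 against BR100 −0.0946 (other SNRP), −0.0053 (SF3), 0.0258 (SRSF) and 0.0791 (HNRNP). Genes with no other probe sets dropped out of these medians. Quantile normalization gave 0.6907 (other SNRP) and 0.0079 (SRSF) in BR200, 0.1498 (SRSF) and 0.2310 (HNRNP) in BR100, and 0.0182 (SF3) and −0.0319 (HNRNP) in BR200 against BR100. The mean of the probe sets gave 0.1607 (SRSF) in BR200, 0.1201 (SRSF) and 0.2246 (HNRNP) in BR100, and −0.0542 (SF3) and 0.0679 (SRSF) in BR200 against BR100. No filter gave 0.7734 (Sm) and 0.1552 (SRSF) in BR100. Leaving out 1 array gave, in BR200, 0.7053 to 0.7655 (Sm), 0.5777 to 0.7163 (other SNRP), 0.3155 to 0.4337 (SF3), 0.0392 to 0.0909 (SRSF) and 0.1668 to 0.2453 (HNRNP). In BR100 it gave 0.8269 to 0.9107, 0.6297 to 0.8535, 0.2774 to 0.4496, 0.1829 to 0.2370 and 0.2427 to 0.3281 for the same classes. In BR200 against BR100 it gave −0.1216 to −0.0531, −0.2278 to −0.0846, −0.0800 to −0.0102, −0.0546 to 0.0059 and −0.0919 to −0.0397. The causes were not tested.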
